A study of Drosophila melanogaster with 12 samples.

Results

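The genes described here are 96 genes of the adult fly head whose RNA was fitted with a peak around dawn on both of 2 successive days, beyond the few dawn genes of largest amplitude. They were chosen from measured values. Probe sets naming 1 gene were reduced to 1 per gene, the one with the highest mean over 12 arrays, which gave 10844 genes, of which 5613 had a mean of at least 5 (log2). A cosine and sine with a period of 24 h were fitted by least squares to each day separately, and 199 of the 5613 genes (3.55%) had both fitted peaks from 22 to 4 h, through 24 h. These were ranked by the smaller of the 2 daily amplitudes, the amplitude being how far the fitted curve rises above its mean (log2). The first 100 were taken, and 4 of them (CG13305, Culd, CG10433 and Nagk, the first 4 ranks) were left out by the rule, together with Dip-B, CG1441, Clk and cry, which were not among the 199.

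The arrays came from heads of Drosophila melanogaster of the genotype y w, which carry body colour and eye colour mutations and are otherwise described only by that name. Both days used the same genotype, and flies had been kept in 12-h light and 12-h dark cycles for 3 days beforehand. The day of constant darkness (DD) followed directly on a further light/dark day (LD), with 1 array at each of 4, 8, 12, 16, 20 and 24 h of each day, written CT in DD and ZT in LD and counted from subjective or actual lights-on. Each sample pooled about 100 to 200 heads; the sources used here do not state the age or sex of the flies. No time point was repeated, so every error below is the scatter of 6 or 12 single arrays, which may be technical, and the number of arrays limits the precision. An SD given with the mean of a day also holds the change over its 6 clock times, and is not a replicate error.

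In flies the circadian clock is a transcriptional feedback loop. CLOCK and CYCLE drive period and timeless towards the evening, the PERIOD and TIMELESS proteins shut them off late at night, and a second loop through vrille and Pdp1 sets Clock RNA itself to a crest near dawn. Head RNA holds compound eye, brain, glia, fat body and cuticle-secreting epidermis together, and transcripts that crest around dawn can come from any of them. Fewer cells of a type and less RNA per cell cannot be told apart in such bulk samples.

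The array medians lay between 4.93 and 4.96 (log2). Head markers were measured as follows. The photoreceptor arrestin gene Arr1 ranged from 9.44 to 11.41 in DD and from 10.19 to 11.69 in LD, the glial glutamine synthetase gene Gs2 from 9.92 to 10.71 in DD and from 9.89 to 10.95 in LD. The glial genes repo (4.835 to 5.765 in DD and 4.948 to 5.948 in LD) and nrv2 (4.901 to 5.48 in DD and 4.61 to 5.275 in LD) were far lower. Their lowest DD values lay below the array medians. Of the neuronal genes, the synaptic genes brp (5.41 to 5.83 in DD and 5.45 to 5.79 in LD) and nSyb (4.99 to 6.19 in DD and 5.42 to 5.99 in LD) lay above the array medians, and elav (2.98 to 3.69 in DD and 3.17 to 3.48 in LD) lay below them. Control transcripts of actin, GAPDH and eIF-4a had a mean 3' minus 5' signal (log2) of 3.45 at CT12, 3.12 at ZT4 and 2.64 at CT4, against 1.69 to 2.20 in the other 9 arrays. At CT12 the mean centred levels of the male reproductive tract and muscle marker lists were also at their highest, 1.19 and 0.83 (log2), and that of the midgut list was 0.63, second to 0.84 at ZT12.

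The daily swings of the 96 genes were shallow. The smaller amplitude ran from 0.0643 to 0.302 with a median of 0.0933 (log2), which is a peak-to-trough ratio of 1.09-fold to 1.52-fold with a median of 1.14-fold. Only inaD, SmydA-8 and Cpr67B reached 0.2, and 15 genes reached 0.15. In DD the median amplitude was 0.119, a ratio of 1.18-fold, and in LD 0.114, a ratio of 1.17-fold; the DD amplitude was the larger in 57 genes and the LD amplitude in 39. The scatter around the fitted curves was of like size, with a median residual SD of 0.120 in DD and 0.106 in LD. In 16 genes the smaller amplitude exceeded both residual SDs, and in 74 the amplitude of a fit over all 12 arrays was at least 2 of its standard errors. The cosine and sine accounted for a median of 52.8% of the variance in DD and 49.3% in LD. All of these values follow from the choice of the genes and are given as a description.

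**Figure D1:**
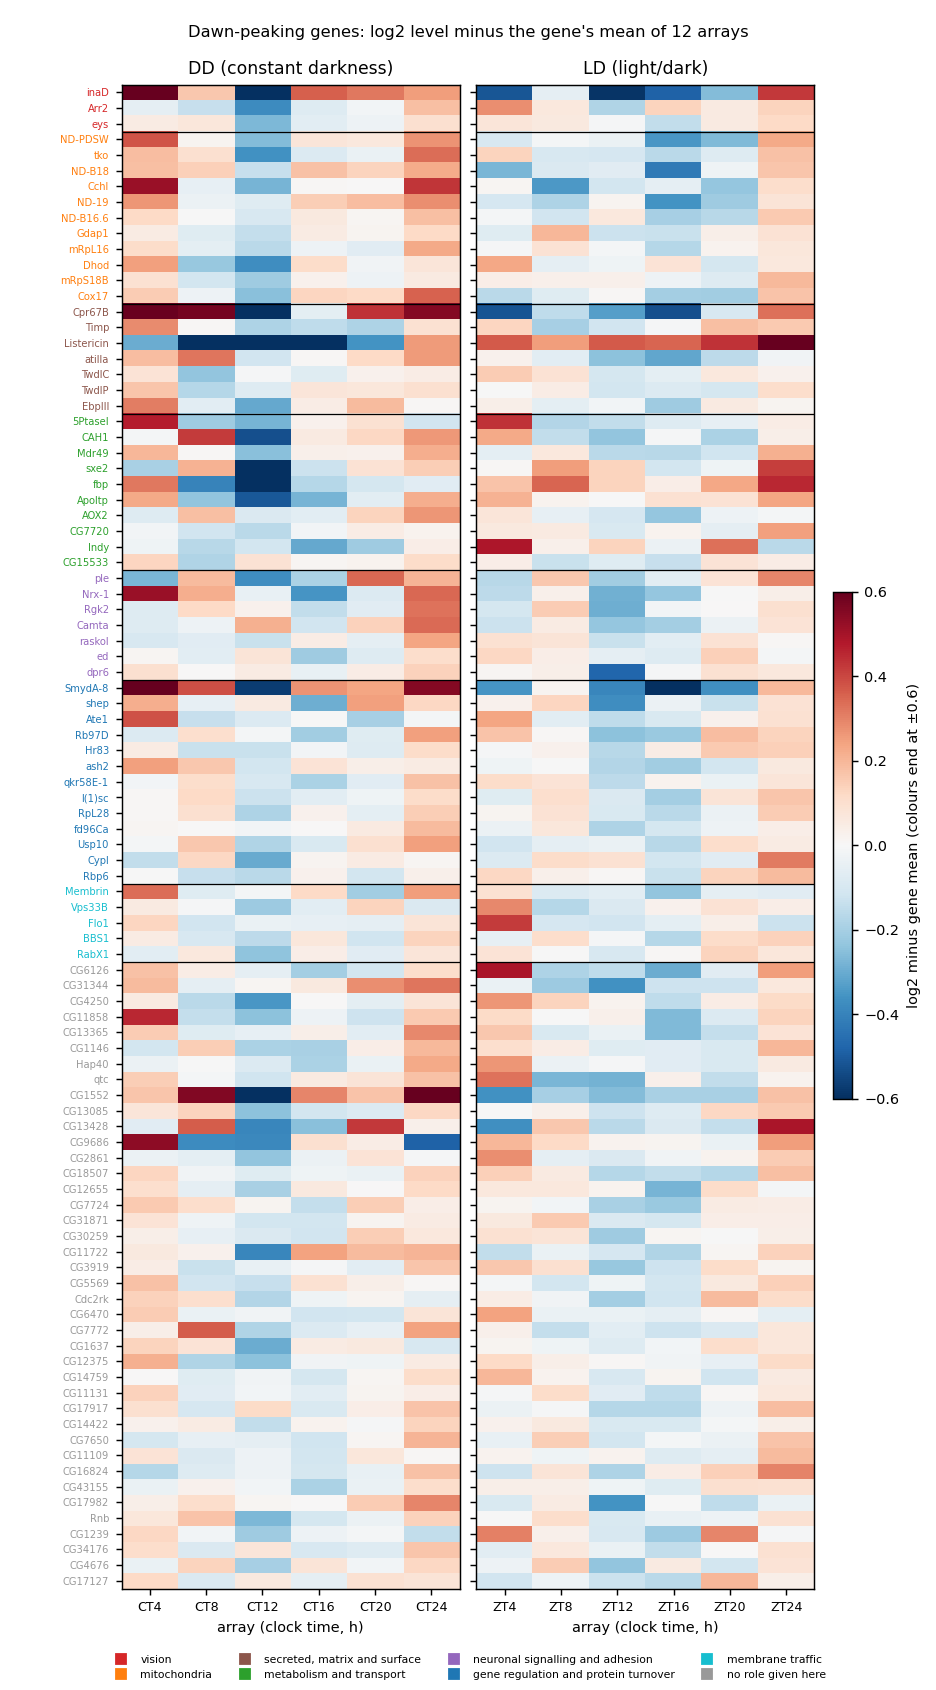
Each row is 1 of the 96 genes and each column 1 array, DD left and LD right, by clock time; colour is the log2 level minus the gene's mean over 12 arrays, with the colour scale ending at 0.6 either way, and name colours give roles. The columns CT24 and ZT24 are mostly red, with 87 and 86 genes above their own mean, and CT12 is mostly blue, with 12 genes above it.

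Fitted peaks had a median of 0.761 h in DD and 2.02 h in LD. In DD 29 genes peaked from 22 to 24 h, 44 from 0 to 2 h and 23 from 2 to 4 h, and in LD the numbers were 19, 29 and 48. The DD peak was the earlier one in 65 genes and the later one in 31, with a median DD minus LD difference of -1.17 h and a range of -4.76 to 5.06 h. Both peaks lay within 2 h of each other in 50 genes. With samples 4 h apart, differences of an hour are finer than the sampling.

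The array values themselves show where the curves were high and low. In DD 79 genes were highest at CT24 (45) or CT4 (34), and 80 were lowest at CT12 (58) or CT16 (22). In LD 70 were highest at ZT24 (44) or ZT4 (26), and 77 were lowest at ZT16 (42) or ZT12 (35). The mean of the 96 genes, each centred on its own mean, was 0.15 at CT24, 0.12 at CT4 and -0.19 at CT12 in DD, and 0.12 at ZT24, 0.04 at ZT4, -0.11 at ZT12 and -0.12 at ZT16 in LD. The LD trough was thus spread over 2 arrays and the DD trough was mostly in 1.

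That 1 array, CT12, is the one whose control transcripts had the highest 3' minus 5' signal. It held the lowest DD value of 60.4% of the dawn genes and of 33.7% of all 5613 genes with a mean of at least 5. The 2 further arrays with a raised control signal were not low points of the dawn genes: ZT4 held the lowest LD value of 2.08% of them and of 40.2% of all 5613, and CT4 held the lowest DD value of 1.04% of them and of 21.5% of all 5613. CT4 held the highest DD value of 35.4% of the dawn genes and of 15.8% of all 5613. A choice of peaks from 22 to 4 h favours lows at 12 h and highs at 4 h. It leaves few genes lowest at 4 h, so these shares partly follow from the choice. They cannot show what part the control signal had, which was not tested. Without CT12 the fitted DD peak stayed from 22 to 4 h in 76 of the 96 genes and left that range in 20, and the DD amplitude was smaller in 58. Without ZT4 the LD peak stayed in that range in 88.

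**Figure D2:**
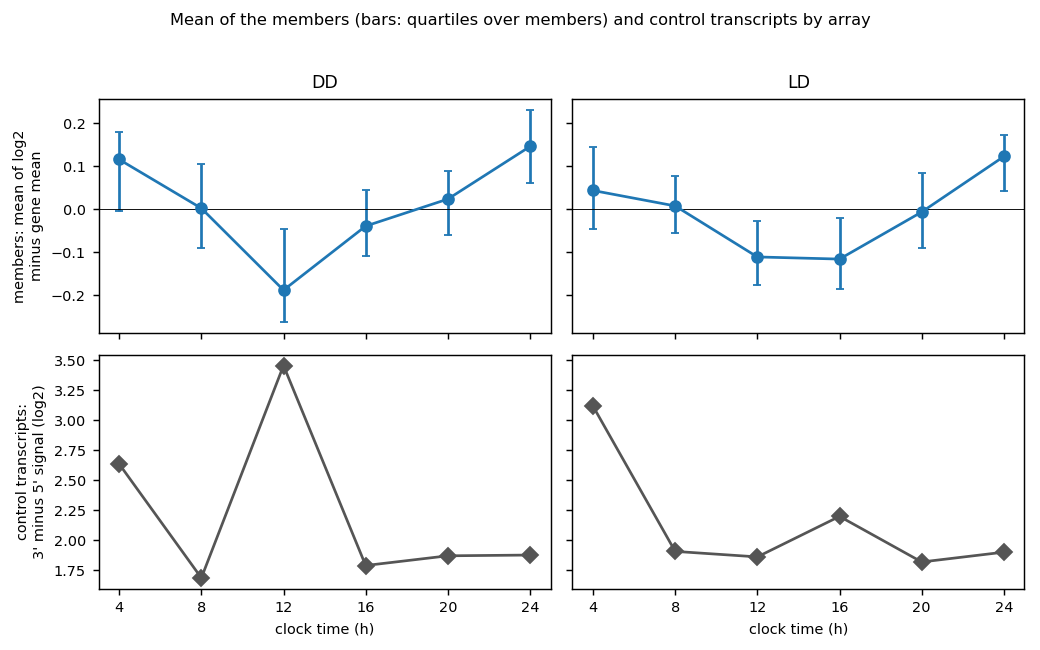
Upper panels show, for each array by clock time (h), the mean over the 96 genes of log2 level minus gene mean, with bars from the lower to the upper quartile of genes; lower panels show the 3' minus 5' signal (log2) of the control transcripts, with DD left and LD right. The genes were at 0.15 at CT24 and 0.12 at ZT24, and CT12 joins the lowest mean, -0.19, with the highest control difference, 3.45.

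The membership depended strongly on single arrays. With each of the 12 arrays left out in turn, the rule found between 35 and 82 of the 96 genes again, with 35 without CT24, 36 without ZT4, 41 without CT12, 47 without ZT12 and 58 without ZT24. The number of genes with both peaks from 22 to 4 h was 306 without CT12 and 348 without ZT4, in place of 199. Only inaD, CG31344 and tko were found again under all 12 omissions. Another 6, Arr2, Apoltp, eys, CG3919, CG14422 and dpr6, kept both peaks from 22 to 4 h under all 12 without always ranking among the first 100. Of the 20 genes with the largest smaller amplitude, the DD amplitude moved by over 1.5 times in 12 when 1 DD array was left out, and the LD amplitude in 12 when 1 LD array was left out. The ratios given below for omitted arrays are the lowest and highest of these fits where both are given.

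Among the vision genes, inaD, which encodes the scaffold protein that holds the phototransduction enzymes together in the photoreceptor microvilli, headed the list. Its level was lowest at CT12 (7.59), had a median of 8.47 and was highest at CT4 (9.17) in DD, and was lowest at ZT12 (7.60), had a median of 7.82 and was highest at ZT24 (8.61) in LD. The lowest values of both days were alike, and the other 5 DD values all lay above the LD median. The fitted peak-to-trough ratio was 1.83-fold in DD with a peak at 1.21 h and 1.52-fold in LD with a peak at 0.630 h. With 1 array left out the DD ratio ran from 1.29-fold (without CT12) to 2.63-fold (without CT24), and the LD ratio from 1.10-fold (without ZT24) to 2.15-fold (without ZT4), so most of the LD swing lay in ZT24.

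Arr2, the major arrestin that ends rhodopsin signalling, was the most abundant of the 96 genes by its probe set, with a mean of 12.13 (log2). It was lowest at CT12 (11.75), had a median of 12.06 and was highest at CT24 (12.31) in DD, and was lowest at ZT12 (11.95), had a median of 12.23 and was highest at ZT4 (12.41) in LD. The low array was at 12 h on both days. Its ratio was 1.34-fold in DD (1.24-fold without CT12 to 1.40-fold without CT8) and 1.21-fold in LD (1.09-fold without ZT12 to 1.36-fold without ZT16). The gene eys, for a secreted proteoglycan that keeps the space between rhabdomeres open, had ratios of 1.21-fold in DD and 1.15-fold in LD, with peaks at 1.73 and 2.61 h.

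Of 17 phototransduction genes with a mean of at least 5, 9 (52.9%) had a DD peak from 22 to 4 h, 5 (29.4%) had an LD peak there, and 2 (11.8%), inaD and Arr2, had both. Of all 5613 genes 32.5% had a DD peak in that range, 18.8% an LD peak and 3.55% both. In 10 of the 17 (58.8%) the lowest DD value was at CT12, against 33.7% of all 5613. The related arrestin gene Arr1 peaked at 0.102 h in DD and 16.63 h in LD, and the light-gated channel gene trp at 1.25 h in DD and 14.97 h in LD. Arr1 was lowest at CT12 (9.44) in DD and at ZT4 (10.19) in LD, both arrays of high control signal.

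**Figure D3:**
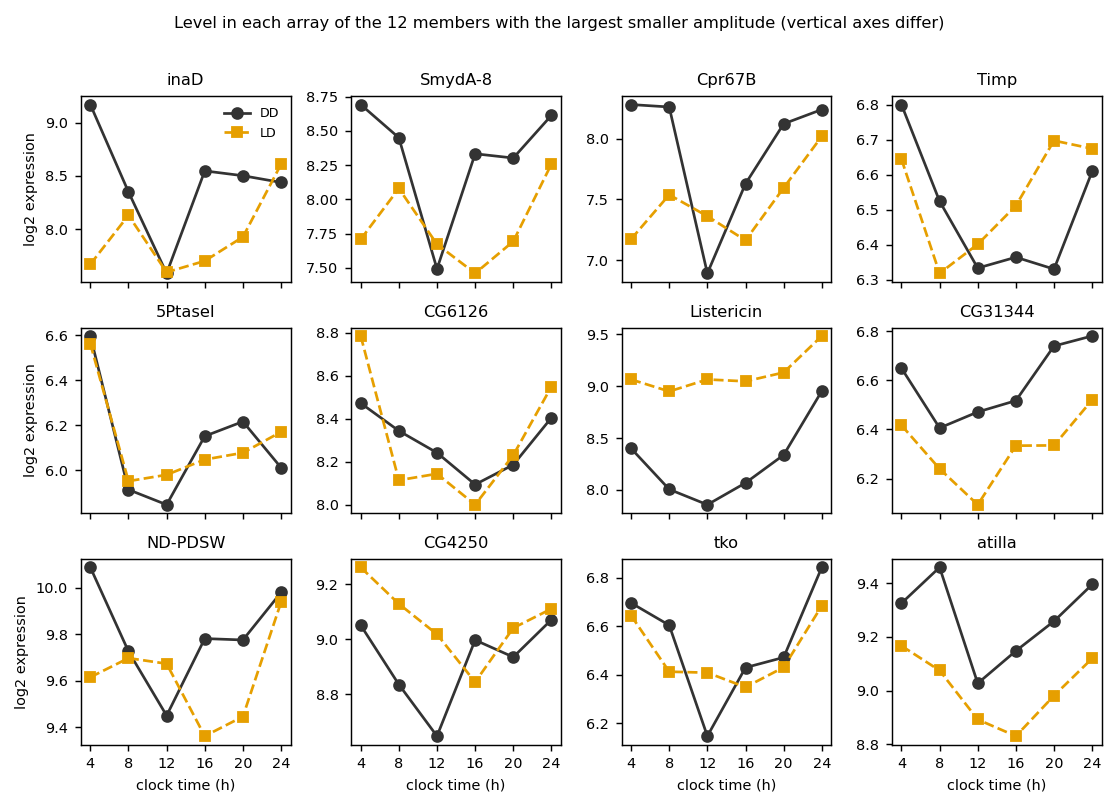
Log2 level by clock time (h) in the 12 genes with the largest smaller amplitude, with DD as filled circles and LD as squares on dashed lines, 1 array per point and vertical axes that differ. Listericin lies lower in DD at all 6 times, and inaD, SmydA-8 and Cpr67B each have 1 deep DD value at CT12 (7.59, 7.49 and 6.89).

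The 11 mitochondrial genes were the largest group of a single organelle. They hold 4 subunits of respiratory complex I (ND-PDSW, ND-B18, ND-19 and ND-B16.6) and 3 proteins of the mitochondrial ribosome (tko, mRpL16 and mRpS18B). The others are Cchl, which attaches haem to cytochrome c, Cox17, a copper chaperone of cytochrome c oxidase, Dhod, the pyrimidine synthesis enzyme of the inner membrane, and Gdap1, of the outer membrane. All 11 had their lowest DD value at CT12, the array of highest control signal, and with CT12 included a larger amplitude in DD than in LD. Their peak-to-trough ratios ran from 1.16-fold to 1.63-fold in DD, with a median of 1.27-fold, and from 1.09-fold to 1.27-fold in LD, with a median of 1.14-fold.

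ND-PDSW was lowest at CT12 (9.45), had a median of 9.78 and was highest at CT4 (10.09) in DD, and was lowest at ZT16 (9.36), had a median of 9.64 and was highest at ZT24 (9.94) in LD. The ratio was 1.41-fold in DD (1.28-fold without CT12 to 1.59-fold without CT16) and 1.27-fold in LD (1.17-fold without ZT16 to 1.49-fold without ZT4). The mitochondrial ribosomal protein gene tko was lowest at CT12 (6.15), had a median of 6.54 and was highest at CT24 (6.84) in DD, and was lowest at ZT16 (6.35), had a median of 6.42 and was highest at ZT24 (6.68) in LD. Of the 11 genes tko had the peaks closest between the days, at 1.63 h in DD and 1.94 h in LD, and with 1 array left out its ratio stayed between 1.33-fold and 1.63-fold in DD and between 1.21-fold and 1.33-fold in LD. Cchl had the largest DD ratio of the group, 1.63-fold (1.56-fold without CT12), with its highest DD value at CT4 (7.61). In ND-B18 the DD ratio was 1.18-fold and 1.04-fold without CT12, so nearly all of its DD swing lay in that array. Its DD ratio without CT12 was below every LD ratio of the group, so its larger DD amplitude rested on CT12. In ND-PDSW, tko and Cchl the DD ratio without CT12 stayed above the highest LD ratio of the group, 1.27-fold, though only just in ND-PDSW.

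Their families held larger shares of dawn peaks than all genes did. Of 28 complex I subunit genes with a mean of at least 5, 18 (64.3%) had a DD peak from 22 to 4 h, 10 (35.7%) had an LD peak there and 6 (21.4%) had both, and 15 (53.6%) were lowest at CT12. Of 61 mitochondrial ribosomal protein genes, 33 (54.1%) had a DD peak in that range, 18 (29.5%) had an LD peak there and 6 (9.84%) had both, and 33 (54.1%) were lowest at CT12. The shares over all 5613 genes are those given above for phototransduction. Both family lists were drawn up after the data were seen, and the difference in shares was not tested.

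Among secreted, matrix and surface proteins, Cpr67B, a cuticle protein gene with a chitin-binding domain, had the largest DD swing of all 96 genes. It was lowest at CT12 (6.89), had a median of 8.18 and was highest at CT4 (8.28) in DD, and was lowest at ZT16 (7.16), had a median of 7.45 and was highest at ZT24 (8.02) in LD. CT12 stood alone at the bottom in DD, since the next lowest value, at CT16, was 7.63. The ratio was 2.24-fold in DD (1.55-fold without CT12 to 2.66-fold without CT24) and 1.38-fold in LD (1.04-fold without ZT24 to 1.81-fold without ZT4), so the LD swing rested on ZT24. Of 41 Cpr cuticle protein genes with a mean of at least 5, 4 (9.76%) had both peaks from 22 to 4 h and Cpr67B alone was a member. Of 15 Tweedle cuticle genes, a list drawn up after the data were seen, TwdlC and TwdlP (13.3%) had both and were members.

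Timp, the inhibitor of matrix metalloproteases, was lowest at CT20 (6.33), had a median of 6.44 and was highest at CT4 (6.80) in DD, and was lowest at ZT8 (6.32), had a median of 6.58 and was highest at ZT20 (6.70) in LD. The fitted peaks were among the farthest apart, at 3.60 h in DD and 22.54 h in LD. The gene atilla, for a Ly6-family surface protein, was lowest at CT12 (9.03), had a median of 9.29 and was highest at CT8 (9.46) in DD, and was lowest at ZT16 (8.83), had a median of 9.03 and was highest at ZT4 (9.17) in LD. Its LD curve followed the cosine closely, with a residual SD of 0.0181, the smallest among the 96 genes in LD. EbpIII, first described as an ejaculatory bulb protein, averaged 11.72 and swung 1.30-fold in DD and 1.12-fold in LD.

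Listericin, which encodes an antibacterial peptide, followed a smooth course in DD. It was 8.40 at CT4, 8.01 at CT8, 7.86 at CT12, 8.07 at CT16, 8.34 at CT20 and 8.95 at CT24. In LD it was 9.06, 8.95, 9.06, 9.05, 9.13 and 9.48 at ZT4 to ZT24, so that ZT24 stood apart above 5 nearly equal values. The ratio was 1.93-fold in DD (1.60-fold without CT24 to 2.12-fold without CT20) and 1.28-fold in LD (1.10-fold without ZT24 to 1.42-fold without ZT12). Of 27 measured immune effector and recognition genes with a mean of at least 5 in a list that does not hold Listericin, 0 had both peaks from 22 to 4 h.

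The metabolic and transport genes held 10 members, of which 8 were lowest at CT12 in DD. CAH1, a carbonic anhydrase gene, was lowest at CT12 (9.60), had a median of 10.22 and was highest at CT8 (10.55) in DD, and was lowest at ZT12 (9.89), had a median of 10.05 and was highest at ZT4 (10.35) in LD. Without CT12 its DD peak moved from 1.19 to 8.47 h, out of the dawn range. The ABC transporter gene Mdr49 was lowest at CT12 (5.94), had a median of 6.21 and was highest at CT24 (6.41) in DD, and was lowest at ZT16 (6.02), had a median of 6.10 and was highest at ZT24 (6.40) in LD.

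5PtaseI, for an inositol polyphosphate 5-phosphatase, was lowest at CT12 (5.85), had a median of 6.08 and was highest at CT4 (6.60) in DD, and was lowest at ZT8 (5.95), had a median of 6.06 and was highest at ZT4 (6.56) in LD. The 4-h array was the highest on both days. The ratio was 1.29-fold in DD (1.19-fold without CT12 to 1.68-fold without CT24) and 1.33-fold in LD (1.14-fold without ZT4 to 1.48-fold without ZT24). The gluconeogenic gene fbp, for fructose-1,6-bisphosphatase, swung 1.81-fold in DD and 1.20-fold in LD, with a low of 6.50 at CT12, and 1.38-fold in DD without that array. Apoltp, which encodes the apolipoprotein of the lipid transfer particle, swung 1.66-fold in DD and 1.16-fold in LD, and its DD ratio was 1.60-fold without CT12. In sxe2, a lipase-family gene, the DD ratio was 1.47-fold and 1.03-fold without CT12. The remaining members here were AOX2, an aldehyde oxidase gene, Indy, a citrate transporter gene, CG15533, of the sphingomyelinase family, and CG7720, with DD ratios of 1.10-fold to 1.20-fold and LD ratios of 1.11-fold to 1.18-fold.

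Of the 7 neuronal signalling and adhesion genes 2 were lowest at CT12. The gene ple, for tyrosine hydroxylase, the rate-limiting enzyme of dopamine synthesis, was lowest at CT12 (6.30), had a median of 6.67 and was highest at CT20 (7.02) in DD, and was lowest at ZT12 (6.46), had a median of 6.68 and was highest at ZT24 (6.97) in LD. Both days shared a low at 12 h and a second high value at 8 h (6.86 in DD and 6.83 in LD). The ratio was 1.35-fold in DD (1.19-fold without CT12 to 1.81-fold without CT8) and 1.21-fold in LD (1.07-fold without ZT24 to 1.43-fold without ZT4). The presynaptic adhesion gene Nrx-1 swung 1.76-fold in DD, with its high at CT4 (6.01) and its low at CT16 (5.14), and 1.18-fold in LD; without CT12 the DD ratio was 1.84-fold. The other 5 were the immunoglobulin-domain adhesion genes dpr6 and ed, the small GTPase gene Rgk2, the Ras regulator gene raskol and the calmodulin-binding transcription factor gene Camta, with DD ratios of 1.10-fold to 1.17-fold.

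Of 13 genes of gene regulation and protein turnover, 4 had the larger amplitude in DD and 8 were lowest at CT12. SmydA-8, which encodes a SET and MYND domain protein, was lowest at CT12 (7.49), had a median of 8.39 and was highest at CT4 (8.69) in DD, and was lowest at ZT16 (7.46), had a median of 7.70 and was highest at ZT24 (8.26) in LD. The other 5 DD values lay between 8.30 and 8.69, so CT12 made most of the DD ratio of 1.82-fold, which ran from 1.32-fold without it to 2.40-fold without CT16. The LD ratio was 1.42-fold (1.29-fold without ZT16 to 1.94-fold without ZT4).

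The RNA-binding protein gene shep was lowest at CT16 (7.88), had a median of 8.26 and was highest at CT20 (8.42) in DD, and was lowest at ZT12 (7.80), had a median of 8.17 and was highest at ZT8 (8.30) in LD. Ate1, for the arginyl transferase that marks proteins for degradation, was lowest at CT20 (5.84), had a median of 5.99 and was highest at CT4 (6.43) in DD, and was lowest at ZT12 (5.89), had a median of 6.02 and was highest at ZT4 (6.28) in LD. Its high value came from the 4-h array on both days, and without CT4 the DD ratio was 1.02-fold in place of 1.23-fold. The group also holds the RNA-binding protein genes Rb97D, qkr58E-1 and Rbp6, the chromatin gene ash2 of the trithorax group, the nuclear receptor gene Hr83, the proneural gene l(1)sc and the forkhead gene fd96Ca. RpL28, Cypl, a cyclophilin gene, and the deubiquitinase gene Usp10 complete it. Apart from SmydA-8, shep, Ate1 and Rb97D (1.18-fold in DD and 1.38-fold in LD), their DD ratios lay between 1.10-fold and 1.23-fold.

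Membrane traffic gave 5 shallow members: the Golgi SNARE gene Membrin, Vps33B, the flotillin gene Flo1, the Rab gene RabX1 and BBS1 of the ciliary BBSome. Their ratios ran from 1.10-fold to 1.22-fold in DD and from 1.11-fold to 1.21-fold in LD, and 3 of the 5 were lowest at CT12. A Flo1 value of 6.39 at ZT4, against 5.85 to 6.01 at the other LD times, carried its LD curve.

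For the remaining 40 genes no role is given here. CG6126 had the largest LD swing of all 96 genes, with ratios of 1.28-fold in DD (1.26-fold without CT16 to 1.31-fold without CT12) and 1.61-fold in LD (1.41-fold without ZT4 to 1.78-fold without ZT12). It was lowest at CT16 (8.09), had a median of 8.29 and was highest at CT4 (8.47) in DD, and was lowest at ZT16 (8.0), had a median of 8.19 and was highest at ZT4 (8.79) in LD. Both days put its trough at 16 h and its crest at 4 h. CG31344 was lowest at CT8 (6.41), had a median of 6.58 and was highest at CT24 (6.78) in DD, and was lowest at ZT12 (6.09), had a median of 6.33 and was highest at ZT24 (6.52) in LD.

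CG4250 was lowest at CT12 (8.65), had a median of 8.97 and was highest at CT24 (9.07) in DD, and was lowest at ZT16 (8.84), had a median of 9.08 and was highest at ZT4 (9.26) in LD. CG11858 was lowest at CT12 (5.01), had a median of 5.18 and was highest at CT4 (5.71) in DD, and was lowest at ZT16 (4.99), had a median of 5.27 and was highest at ZT24 (5.39) in LD. CG13365 was lowest at CT8 (8.16), had a median of 8.22 and was highest at CT24 (8.52) in DD, and was lowest at ZT16 (7.97), had a median of 8.16 and was highest at ZT4 (8.39) in LD. In these 3 genes the LD trough lay at ZT16, and their DD ratios were 1.26-fold, 1.42-fold and 1.21-fold. Of all 40, 21 had the larger amplitude in DD and 19 were lowest at CT12. Ratios ran from 1.09-fold to 1.67-fold in DD, with the highest in CG1552, whose DD ratio was 1.11-fold without CT12, and from 1.09-fold to 1.61-fold in LD.

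**Figure D4:**
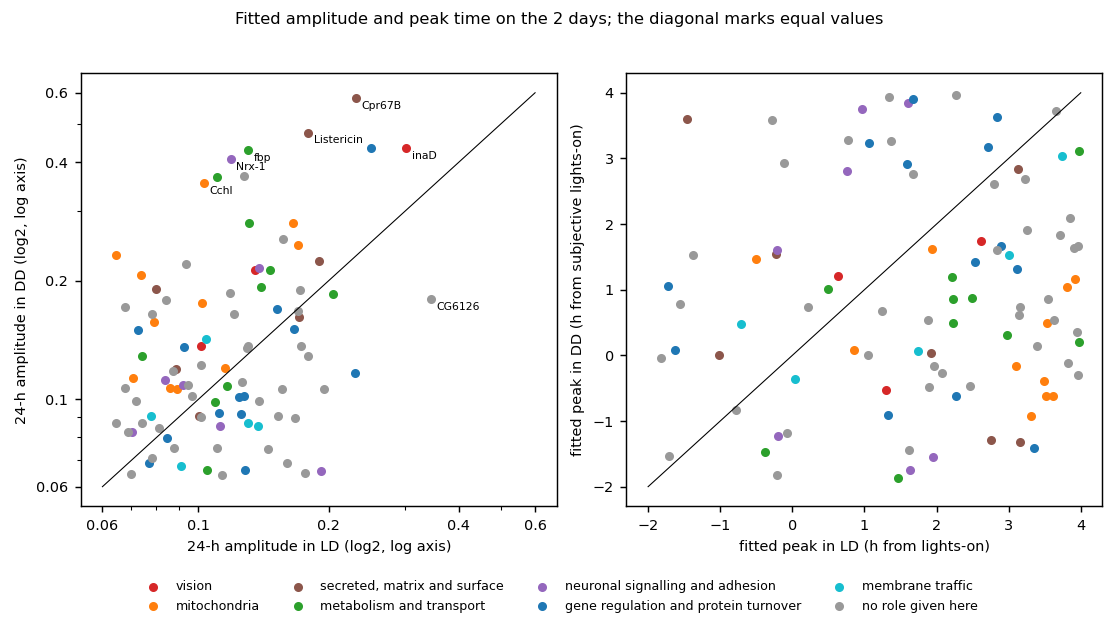
Left, the fitted 24-h amplitude (log2, log axes) in DD against LD, and right, the fitted peak time (h from subjective or actual lights-on) in DD against LD, 1 point per gene coloured by role. With CT12 included in the fits, the 11 mitochondrial genes lie above the diagonal of equal amplitudes, and 65 of the 96 genes lie below the diagonal of equal peak times.

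The rank limit had no gap. The last 4 members, CG34176, CG4676, Cox17 and CG17127, had smaller amplitudes of 0.0643 to 0.0646, and the first 4 genes beyond them, beat-IV, Vps24, CG11414 and Xxylt, had 0.0632 to 0.0641. Under the same rule and with all 12 arrays, dawn held the fewest genes of 4 windows of 6 h. That place rested on single arrays, since the dawn window held 348 genes without ZT4 and 306 without CT12. The other windows were not recounted with arrays left out. Peaks on both days lay from 22 to 4 h in 199 genes, from 4 to 10 h in 317, from 10 to 16 h in 253 and from 16 to 22 h in 351. The median smaller amplitude of the first 100 genes, with named genes included, was 0.0956 in the dawn window and 0.233, 0.111 and 0.193 in the other 3.

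In mean level and chromosome arm the members were close to all genes. Their means over 12 arrays had a median of 6.22 (log2), against 6.15 for all 5613 genes, with 35 below 6, 44 from 6 to 8 and 17 at 8 or more. By chromosome arm 16.7% lay on 2L, 18.8% on 2R, 19.8% on 3L, 23.96% on 3R and 20.8% on X, against 16.7%, 20.5%, 19.2%, 24.4% and 18.6% of all 5613 genes. A single pair, CG7724 and Rbp6 on 3L, were direct neighbours. For 11 members the array carried 18 further probe sets, and 2 of those, for CG30259 and raskol, also had both peaks from 22 to 4 h. The 2 further probe sets with a mean of at least 5, for CG31871 and Rbp6, did not. None of the 16 clock genes with a mean of at least 5 was a member, and 0 of them had both peaks from 22 to 4 h. Clk is not among these 16, so its peak was not assessed here. The 16 do hold cry, which the rule left out by name and which peaked at 1.59 h in DD and 9.46 h in LD.

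Whether the dawn genes differed in level between the days was tested with limma over all 13966 probe sets. The 24-h cosine and sine, shared by both days, were covariates. The mean level of a day played no part in the choice apart from the minimum. The choice did favour genes whose 24-h curves were alike on both days. That tends to lower their residual around the shared curve, and with it the standard error and p. Listericin fell in DD, and it was the 1 of the 96 genes to pass a Benjamini-Hochberg adjusted p of 0.05, against 0.0859% of all probe sets called in either direction (12 of 13966) and 0.0286% called lower in DD (4). It averaged 8.27 ± 0.39 in DD and 9.12 ± 0.19 in LD (log2, SD, n = 6 each), a DD minus LD difference of -0.85 ± 0.10 (SE) with a limma adjusted p of 0.0135, or 1.81-fold higher in LD. It was lower in DD at all 6 clock times, and the ranges barely overlapped, with the highest DD value, 8.952 at CT24, just above the lowest LD value, 8.949 at ZT8. The limma adjusted p was 0.0645 without ZT16, 0.0656 without CT4, 0.0581 without CT8, 0.0543 without CT16 and 0.0719 without CT20, and with the day alone in the model it was 0.108. As DD always followed LD, darkness and the passage of time cannot be told apart.

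For the dawn genes as a whole the DD minus LD difference was positive in 49 of 96 with a median of 0.0066 (log2), and in all probe sets it was positive in 6979 of 13966. At an unadjusted p under 0.05 there were 14 of the 96 genes, against 616 of 13966 probe sets (4.41%). With the day alone in the model there were 10 of the 96 genes, against 651 of 13966. Since the choice tends to lower the residual around the shared curve, the count of 14 is not free of the choice. An excess over all probe sets was not tested. The next 9 genes by p did not pass the threshold. CG31344 averaged 6.59 ± 0.15 in DD and 6.32 ± 0.15 in LD (SD, n = 6 each), a difference of 0.27 ± 0.05 with a limma adjusted p of 0.135. For atilla the means were 9.27 ± 0.16 in DD and 9.01 ± 0.13 in LD (SD, n = 6 each), a difference of 0.26 ± 0.06 with a limma adjusted p of 0.276. These genes and CG17982 were higher in DD at all 6 clock times, as were 2.03% of all probe sets, while Listericin was lower at all 6, as were 1.67%. The DD and LD values overlapped in each of the 96 genes, and 0.408% of all probe sets had no overlap.

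The other genes among these 9 were fbp (-0.46 ± 0.14), SmydA-8 (0.50 ± 0.15), ND-19 (0.26 ± 0.08), Apoltp (-0.21 ± 0.07), ash2 (0.15 ± 0.06), CG17982 (0.20 ± 0.07) and ND-B18 (0.24 ± 0.09), with limma adjusted p from 0.756 to 0.999. Among the 11 mitochondrial genes 9 differences were positive (median 0.09), and 0 passed in limma. For the 28 complex I subunit genes 27 were positive (median 0.23), and 0 passed. Among all measured muscle marker genes, with those of a mean under 5 included, 17 of 18 were positive, with a median of 0.64 (log2). Of the male reproductive tract genes 28 of 29 were positive (median 0.18), and of the fat body and yolk genes 3 of 10 (median -0.24). The mean centred level of the muscle genes ran from -0.12 to 0.83 over the DD arrays and from -0.65 to 0.02 over the LD arrays. The part of these lists in the mitochondrial difference was not tested.

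**Figure D5:**
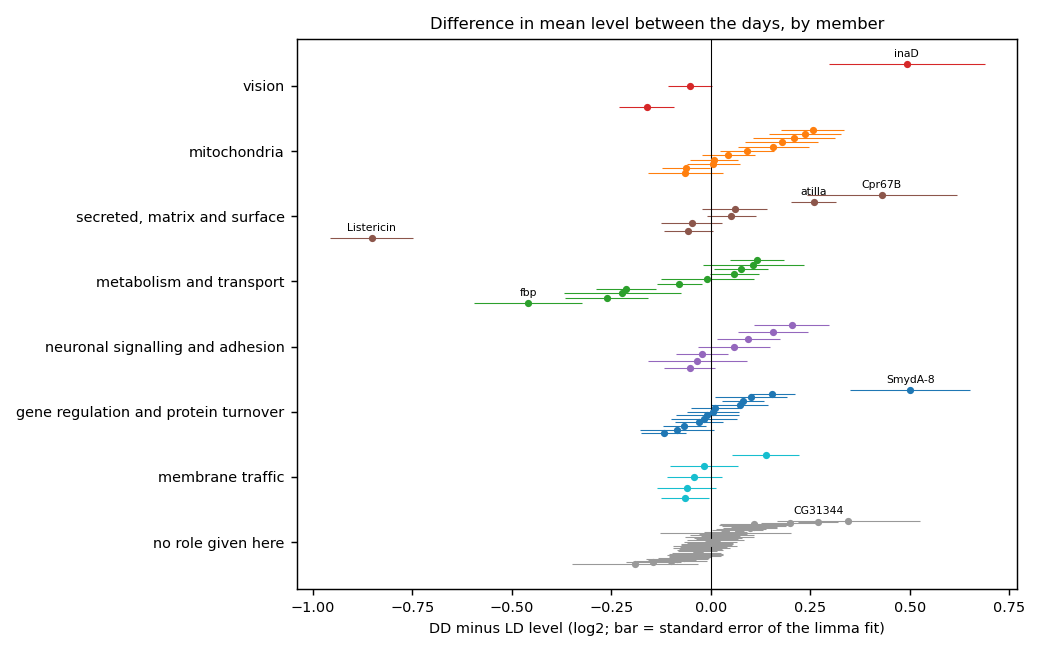
Each point is the DD minus LD difference (log2) of 1 of the 96 genes, with a bar of 1 standard error of the limma fit, grouped by role. Listericin lies apart at -0.85, and the mitochondrial genes lie between -0.06 and 0.26.

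The shape of the daily curve beyond the 24-h wave was tested as a 12-h component in limma over all 13966 probe sets. At even 4-h spacing this component is independent of the 24-h terms used in the choice. Its p again rests on a residual that the choice tends to lower. Of the 96 genes 0 passed, against 0.00716% of all probe sets (1 of 13966). At an unadjusted p under 0.05 there were 4, against 4.36% of all probe sets. The fitted 12-h amplitude had a median of 0.0623 and reached 0.228 (log2). The 5 genes with the smallest p, none of which passed (limma adjusted p 0.991 each), were 5PtaseI, Dhod, ple, qtc and Ate1, with 12-h amplitudes of 0.214, 0.168, 0.213, 0.142 and 0.136. In all of these but ple the 12-h crest lay between 3.55 and 4.20 h, near the 4-h and 16-h arrays, and in ple it lay at 8.81 h.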

How the data were processed

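The table deposited by the authors holds 1 log2 value per probe set and array, from biotin-labelled head RNA. RMA is the tool named in the submitters' processing notes; its version and the arrays it was run over are not given in those notes. Since RMA makes the distributions of the arrays alike, though not identical here (medians 4.93 to 4.96), a shift common to most genes cannot be seen. These values entered the fits as they stood, and signal over background was not measured. Of 14010 probe sets, 44 controls were left out. Of the other 13966, 12443 named 1 gene, 327 several and 1196 none in the platform annotation, and 12394 of those with 1 gene matched RefSeq. Arrays were grouped by day and clock time from their titles.

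The members and gene lists were chosen with earlier results of these data known. Least squares fits used numpy 2.4.6 (Python 3.11.15), and tests used limma 3.58.1 (lmFit, eBayes, Benjamini-Hochberg) in R 4.3.3, with 8 residual degrees of freedom for DD minus LD and 6 for the 12-h component. Simulated data had 200 changed among 13966 probe sets. The DD minus LD test recovered 93.5% of changes of 1 and 100% of changes of 2 (log2). The 12-h test recovered 76.5% and 95%, with these sizes counted from peak to trough. The members' own values were smaller. Their DD minus LD differences ran from -0.853 to 0.501, and their 12-h amplitudes reached 0.228 (log2). Recovery at such sizes was not assessed, so these shares cannot tell how many changes of the members were missed. Per-array values are given for the 20 genes of largest smaller amplitude. Tests name every member past the threshold, or, where fewer than 5 pass, the 10 (12-h: 5) of smallest p; families or roles of 3 or more members are described, and other members are named with their role or by range. Nrx-1, Cchl and other role examples were picked after their values were seen. Alternatives covered scaling, normalization, filters, variance model, clock-time block and omitted arrays. Chromosome arms and neighbouring genes were taken from RefSeq gene positions, and no sequences were used here.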

Additional observations from a re-analysis of the deposited data

Results flagged for a closer look

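In each of the 96 genes the 6 DD and the 6 LD values were checked for 1 array standing apart, by the gap to its nearest neighbour over the whole range (Dixon's test at the 95% level). Of 192 sets of values 14 were flagged (7.29%), in 13 genes. Chance flags about 1 in 20 groups, and these genes were chosen on the same values.

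At CT12, 4 genes stood apart below the rest of DD. SmydA-8 was at 7.493, against 8.302 to 8.692 at the other DD times. CG1552 was at 6.449, against 7.357 to 7.790. ND-B18 was at 8.492, against 8.767 to 8.853, and CG11722 was at 7.033, against 7.451 to 7.668. In DD, 2 further genes stood apart above the rest: Ate1 at CT4 (6.426, against 5.842 to 6.041) and the forkhead gene fd96Ca at CT24 (6.853, against 6.647 to 6.720).

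In LD, 5 genes stood apart above the rest. At ZT4 these were 5PtaseI (6.562, against 5.951 to 6.170), CG6470 (5.257, against 4.960 to 5.022) and Flo1 (6.392, against 5.846 to 6.011). At ZT24 they were Listericin (9.483, against 8.949 to 9.131) and CG1552 (7.368, against 6.829 to 6.999). CG1552 was the 1 gene with an array apart on both days.

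Below the rest of LD stood dpr6 at ZT12 (5.528, against 5.993 to 6.093), CG30259 at ZT12 (5.559, against 5.770 to 5.863) and CG12655 at ZT16 (5.404, against 5.670 to 5.794).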

How the results depend on the processing

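The rule for the dawn genes found 61 of the 96 again with a mean of at least 6, 35 without ZT4 and CT12 together, and 35 to 82 with 1 array left out. With a mean of at least 4, arrays centred on their medians, further quantile normalization or ranking by 1 fit over both days it found 68, 84, 69 and 72. Leaving out the 8 named genes before the first 100 are taken kept all 96 and added beat-IV, Vps24, CG11414 and Xxylt.

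For DD minus LD, 0 members were called with the day alone in the model and 0 to 1 with 1 array left out; all other settings called 1. Over all probe sets the count was 1 to 22 with 1 array left out, lowest without CT4 and highest without CT24. With clock time as a replicate block, which shares only a clock time and whose pairs correlated between -0.0034 and 0.547, 1 member and 11 probe sets were called. The 12-h count over all probe sets was 0 without ZT4 and CT12 and 0 to 8 with 1 array left out, highest without CT4; that of members was 0 in all 17 alternatives. Every named member kept the direction of its DD minus LD difference in all 190 fits, and Listericin was not called in 6. With 1 array of the same day left out, the amplitudes of the 20 leading genes moved by over 1 standard error in 13 of 120 DD fits and 12 of 120 LD fits, and by over 1.5 times in 12 genes in DD and 12 in LD. The causes were not tested.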
